A study of Mus musculus with 3 samples.

Results

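Cluster 5 of the TpitKO pituitary was a group of growth hormone cells, and its members were the cells that the deposited cell table placed in cluster 5 of the TpitKO library. There were 2457 of them, 18.3% of the 13413 TpitKO cells and among 37474 cells in all. The series held 3 single-cell libraries of dissociated mouse pituitaries, 1 each from TpitWT, TpitHT and TpitKO mice. The meaning of HT, the way the Tpit allele was made, the age of the mice and their number per library are not given by the labels, and with 1 library each, genotype and library cannot be told apart. All 3 groups were dissociated with trypsin and sorted with propidium iodide to remove dead cells, per the labels. The same clustering gave the TpitKO library a further somatotrope cluster, cluster 1, with 1188 cells. The TpitWT and TpitHT libraries held clusters 1 (1635 and 1715 cells) and 2 (2081 and 2092 cells), with only 28 and 24 cells in cluster 5, while TpitKO had 17 cells in cluster 2.

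Somatotropes make growth hormone. They arise from the Pou1f1 (Pit1) lineage together with lactotropes and thyrotropes, secrete in response to growth hormone-releasing hormone through the receptor Ghrhr and cyclic AMP, and are held back by somatostatin. Tpit, encoded by Tbx19, is the transcription factor of the other lineage, the corticotropes and melanotropes that make proopiomelanocortin, whose product ACTH drives glucocorticoid synthesis in the adrenal gland.

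Each genotype had 1 library, and the clusters had been drawn from the same genes that are compared here. No difference was therefore tested, and every interval below is an exact 95% interval for counting error only, too narrow where counts come bunched in a few cells. Levels are counts summed over the cells of a cluster and given as CPM, scaled to a total of 1000000 counts outside 7 hormone genes, because Gh took about as many counts in these cells as all other genes together. Log2 ratios were taken after adding 10 CPM, and a gene was called where the ratio reached 2-fold. The sums held 31595149 counts in cluster 5 and 9737132 in cluster 1 of TpitKO. Cell barcodes shared between libraries were few: 36 between TpitWT and TpitHT, 39 between TpitWT and TpitKO, 40 between TpitHT and TpitKO, and 13 of those in TpitKO cluster 5.

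The cells of cluster 5 carried the RNA of somatotropes. Gh, on chromosome 11 (GRCm38, 106300271 to 106301865), took 46.1% of all counts in cluster 5 and 62.7% in cluster 1 of TpitKO. In the other TpitKO clusters of at least 100 cells, Gh took between 0.621% and 2.69%, and every cell of every such cluster had a Gh count, so a count of Gh in a single cell does not mark a somatotrope. The other given markers also stood high in clusters 5 and 1 alike. Car10, a carbonic anhydrase-related protein, was read at 134 CPM in cluster 5 and 138 in cluster 1, against at most 9.58 elsewhere. Homer2, a scaffold protein of calcium signalling complexes, was read at 134 and 115 CPM, against at most 17.6. Stk32a, a protein kinase, was read at 156 and 157 CPM, with 117 CPM in cluster 14 next. Sytl4, a granule docking protein also called granuphilin, was read at 293 and 351 CPM, with 129 CPM in cluster 13 next. None of the 5 markers thus separated cluster 5 from cluster 1.

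**Figure D1:**
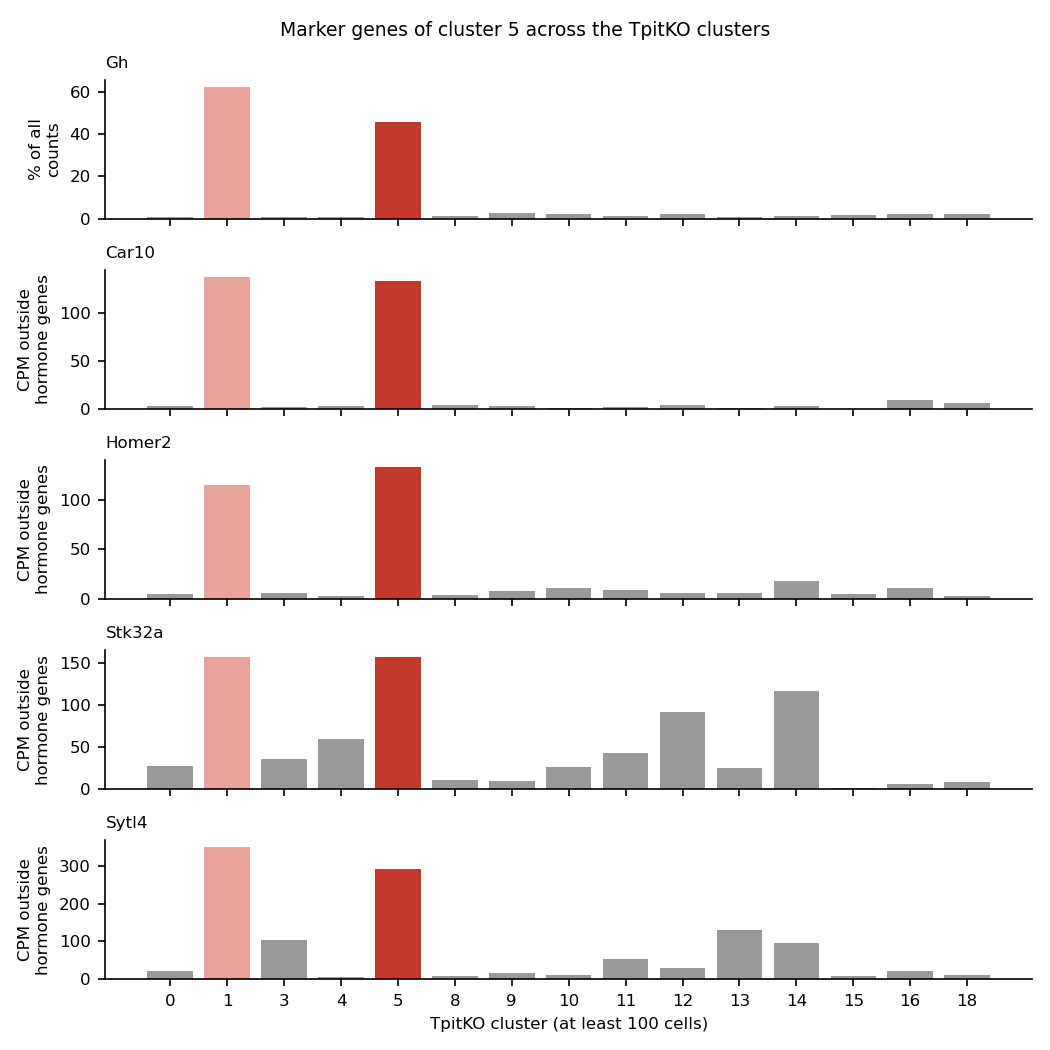
Level of the 5 marker genes in each TpitKO cluster of at least 100 cells, as a share of all counts for Gh and as CPM outside the hormone genes for the others; each bar is 1 sum over cells, with no replicate. Clusters 5 (dark red) and 1 (light red) stand above the rest for all 5 genes, by a small margin over cluster 14 for Stk32a (117 CPM there against 156 in cluster 5).

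Most marker lists of other cells, taken without the hormone genes, were low in cluster 5, with fibroblast and hemoglobin genes as exceptions. The hormone genes themselves were not absent. Prl took 0.546% of all counts in cluster 5, 1.07% in cluster 1 and 2.41% in endothelial cluster 9 of TpitKO, with a count in 100% of the cells of each. Cga took 0.116%, 0.221% and 0.351% in the same order, with a count in 99.96% of cluster 5 cells. The 4 corticotrope markers other than Pomc gave 1 count in all, and Tbx19 itself had 1 count. The 5 endothelial markers summed to 7.61 CPM, against 6405 CPM in cluster 9, and the 4 cycling markers to 1.55 CPM. The 3 lactotrope markers other than Prl summed to 21.8 CPM and the 2 thyrotrope markers other than Tshb to 29.2 CPM, against 46.2 and 29.9 CPM in cluster 1 of TpitKO. Fibroblast markers summed to 179 CPM, of which the collagen gene Col1a2 was 176 CPM, with 162 CPM in cluster 2 of TpitWT, while Pdgfra and Col1a1 had 0.0594 CPM each. Hemoglobin genes summed to 312 CPM in cluster 5 and 22.2 CPM in cluster 1 of TpitKO. Only 3.3% of cluster 5 cells had a count of the globin Hbb-bs, and 3.2% of cluster 1 cells. The 4 hemoglobin genes are among the genes called higher below, against cluster 1 of TpitKO and against cluster 2. They are counted there but left out of the ranks of named genes.

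Across genes, the cluster most like TpitKO cluster 5 was not its neighbour in the same library. Over 9785 genes, Pearson's r of log2 levels with cluster 5 was 0.977 for cluster 2 of TpitHT and 0.969 for cluster 2 of TpitWT, against 0.948 for cluster 1 of TpitKO. Genes are not independent replicates, and depth differed between these sums. The mean number of counts outside the hormone genes was 6846 per cell in TpitKO cluster 5, 6704 and 8299 in cluster 2 of TpitWT and TpitHT, and 2952, 2650 and 3327 in cluster 1 of TpitKO, TpitWT and TpitHT. Clusters 5 and 2 were thus the deeper somatotrope clusters of their libraries, and cluster 1 the shallower in each. On the deposited map, 95.9% of the 30 nearest neighbours of a cluster 5 cell of TpitKO were cells of the same cluster and library, and 1.79% were cluster 1 cells of TpitKO. Clusters 2 of TpitWT and TpitHT were mixed with each other, since 37.3% of the neighbours of the TpitWT cells were TpitHT cells. Cluster 1 of TpitKO also lay mostly apart from the other libraries. Of its neighbours, 85.5% were its own cells, and 4.91% and 4.42% were cluster 1 cells of TpitWT and TpitHT.

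**Figure D2:**
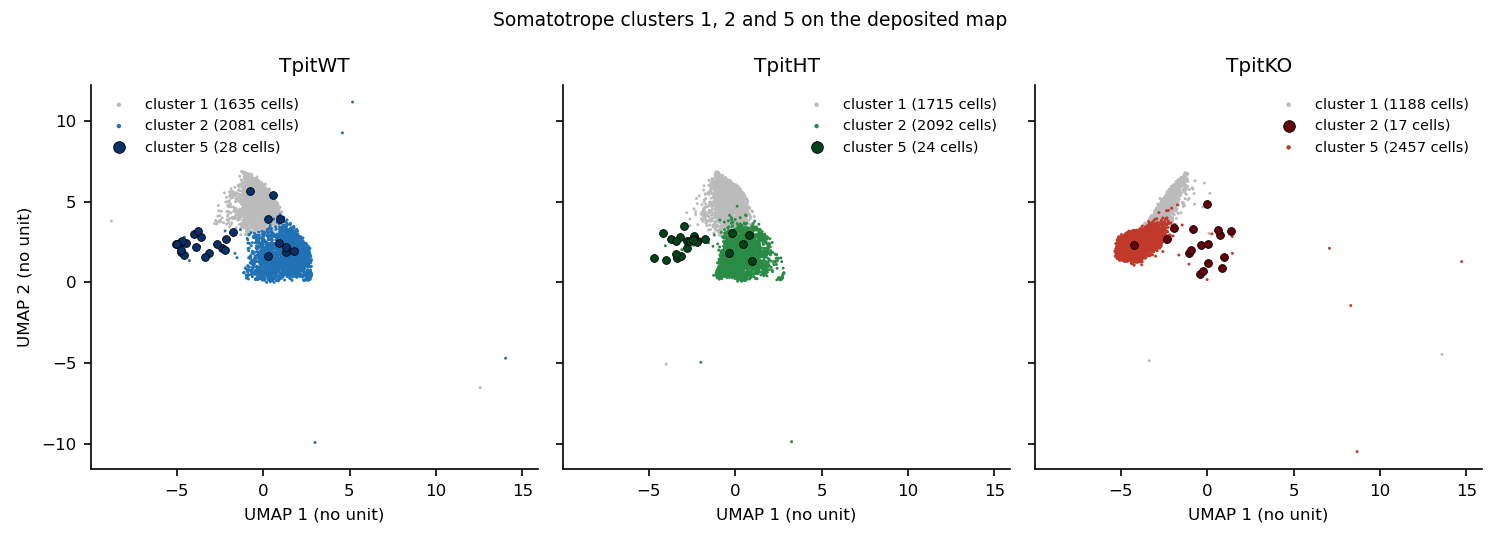
Cells of clusters 1, 2 and 5 on the authors' 2 UMAP axes, which have no unit, in 3 panels for TpitWT, TpitHT and TpitKO; each point is 1 cell, and clusters of under 50 cells have large outlined points. The 2457 TpitKO cells of cluster 5 lie to the left of the place that cluster 2 holds in TpitWT and TpitHT, and most of the 28 and 24 cluster 5 cells of TpitWT and TpitHT lie near that left-hand place.

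Compared with cluster 1 of the same knockout library, cluster 5 had more RNA of ribosomal protein genes and less of mitochondrial, secretory granule and endoplasmic reticulum genes, as shares of the counts outside the hormones. Of 9774 genes compared, 124 were at least 2-fold higher in cluster 5 (1.27%) and 29 at least 2-fold lower (0.297%). These numbers depend on the scale, because cluster 5 held a smaller share of Gh. With all counts as the total, every ratio moved up by 0.56 on the log2 scale before the added 10 CPM, and 606 genes were higher and 2 lower. On the authors' own scaled counts, 5 were higher and 383 lower. The median of all genes was 0.08, and 0.47 with all counts as the total, so lists are given below against that median. So given, no list in the next 3 paragraphs changed its direction with all counts as the total or on the authors' scaled counts, whereas the numbers of higher and lower members depend on the scale. Of the 124 higher genes, 51 were ribosomal protein genes or their pseudogenes, 16 small nucleolar RNA genes, 32 numbered or clone-named genes and 4 hemoglobin genes, which left 21 others. Of the 29 lower genes, 10 were mitochondrial, 12 numbered or clone-named, and 7 others.

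Ribosomal proteins build the ribosome, and their mRNAs are translated in the cytosol. Of 93 such genes measured, pseudogenes left out, 91 were higher in cluster 5 than in cluster 1 and 35 of them at least 2-fold, with a median log2 ratio of 0.96, 0.89 above that of all genes. Rps12 was read at 2039 CPM in cluster 5 and 865 CPM in cluster 1, a ratio of 2.36 (2.27 to 2.45). Tpt1, the translationally controlled tumour protein whose mRNA belongs to the same translational class, was read at 5890 and 2653 CPM, a ratio of 2.22 (2.17 to 2.27). The share of counts outside the hormones that went to ribosomal protein genes was 15.7% in cluster 5 and 7.95% in cluster 1. Cluster 5 was the high one for each of these. Such mRNAs are known to begin with a run of pyrimidines, the 5′ terminal oligopyrimidine tract. RefSeq promoter windows on GRCm38.p6 were found for 68 of the 93 genes, and 40 of those genes (58.8%) had a C followed by at least 6 bases that are each C or T, on the transcript's strand, within 20 bases before and 30 bases after the annotated start. The share was 25.05% of all 27025 genes with a window, 26.6% of the genes compared here, 1 of 17 for the granule list and 0 of 23 for the unfolded protein response list below. It was 3 of 19 (15.8%) for the nuclear-encoded respiratory chain list, which was also higher in cluster 5. Among called genes with a window, 6 of 17 higher ones outside the ribosomal protein genes and 1 of 5 lower ones held the run. The search was chosen after the sequences and values had been seen. The stretches below show the run in capitals for 4 ribosomal protein genes called higher in cluster 5, chosen because they hold it, then 2 called higher that hold none, then 3 genes of the lower lists that hold none. Rps24 also has a RefSeq start without a run, which is not shown. All stretches run 5′ to 3′ on the transcript's strand with the start after the base numbered 20.
Rps12, chr10:23787180-23787229, minus strand: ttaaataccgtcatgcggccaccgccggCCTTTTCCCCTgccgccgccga
Rps24, chr14:24490658-24490707, plus strand: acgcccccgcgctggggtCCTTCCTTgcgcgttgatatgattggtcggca
Rpl13a, chr7:45128716-45128765, minus strand: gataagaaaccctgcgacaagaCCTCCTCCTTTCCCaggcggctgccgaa
Rpl34, chr3:130730308-130730357, minus strand: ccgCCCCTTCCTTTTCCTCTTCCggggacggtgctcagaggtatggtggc
Rpl12, chr2:32961692-32961741, plus strand: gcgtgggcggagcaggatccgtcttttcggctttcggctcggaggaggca
Rpl37, chr15:5116593-5116642, plus strand: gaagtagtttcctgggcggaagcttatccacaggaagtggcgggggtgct
Chga, chr12:102554921-102554970, plus strand: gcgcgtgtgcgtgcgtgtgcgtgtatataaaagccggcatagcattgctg
Scg5, chr2:113829062-113829111, minus strand: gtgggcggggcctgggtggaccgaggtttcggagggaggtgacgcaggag
Hspa5, chr2:34772070-34772119, plus strand: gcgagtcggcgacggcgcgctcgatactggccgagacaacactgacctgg

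The 12 genes named higher by rank among the rest held 5 small nucleolar RNAs, which lie inside other genes, and their reads and those of the host cannot be told apart. Snora65 lies in Rpl12 and was read at 841 CPM in cluster 5 and 324 in cluster 1. Snord100 lies in Rps12 (1279 and 516 CPM), Snora31 in Tpt1 (3119 and 1383 CPM) and Snord12 in the non-coding host gene Zfas1 (74.0 and 26.2 CPM). Zfas1 itself had 171 and 71.6 CPM. Of the protein-coding genes, Camk2n1, an inhibitor of the calmodulin-dependent kinase CaMKII on chromosome 4 (138454314 to 138460123), had 404 CPM in cluster 5 and 158 in cluster 1, a ratio of 2.56 (2.34 to 2.79). Bag1, a partner of the chaperone Hsp70, had 190 and 76.7 CPM. Isg20, an interferon-inducible exonuclease, had 143 and 57.9 CPM. Vmac, a coiled-coil protein, had 59.9 and 19.7 CPM. Snord123 (155 and 63.0 CPM) and the pseudogene Tpt1-ps3 (202 and 84.1 CPM) complete the 12, and the reads of the latter may come from Tpt1.

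Genes of the regulated secretory pathway were lower in cluster 5 as shares. Of 18 granule content and processing genes measured, 16 were lower and 2 of them at least 2-fold, with a median of −0.71 on the log2 scale, 0.78 below that of all genes. Chga, the granule protein chromogranin A, was read at 189 CPM in cluster 5 and 411 in cluster 1, a ratio of 0.46 (0.43 to 0.49). Nucb2, a calcium-binding protein and the precursor of nesfatin, had 76.2 and 169 CPM. Scg5, the chaperone 7B2 of a prohormone convertase, had 1566 and 2976 CPM, and the convertase Pcsk1 had 98.0 and 187 CPM. The exceptions were Pcsk1n, an inhibitor of that convertase, with 1947 and 1235 CPM, and Rph3al, a vesicle docking protein, with 48.3 and 34.5 CPM. In the unfolded protein response list of chaperones and folding enzymes, 21 of 24 were lower, with a median of −0.56, 0.63 below that of all genes. Hspa5, the chaperone BiP, had 788 and 1525 CPM. Crebrf, Atf4 and Ddit3, which encode transcription regulators, were the 3 at or above cluster 1, with log2 ratios of 0.23, 0.03 and 0.01.

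Several other lists stood apart from the median of all genes, here as log2 differences from it. On the lower side were MHC class I genes (−0.62, 8 of 11 lower), cell adhesion (−0.48, 12 of 14 lower), ion channels (−0.37, 22 of 26 lower) and cholesterol and fatty acid synthesis (−0.36, 20 of 22 lower). On the higher side were cell cycle inhibitors and D cyclins (0.35, 14 of 14 higher), nuclear-encoded respiratory chain subunits (0.34, 25 of 28 higher) and antioxidant genes (0.27, 20 of 24 higher). Mitochondrially encoded genes were lower in 27 of 27, 0.99 below the median of all genes, and took 2.33% of the counts outside the hormones in cluster 5 against 5.69% in cluster 1. The long non-coding RNA Malat1, which stays in the nucleus, was read at 27888 and 63250 CPM, a ratio of 0.44 (0.44 to 0.44). The rest of the genes named lower were Gem, a small GTPase that restrains calcium channels (98.7 and 228 CPM), the microRNA host transcript Mirg (58.9 and 139 CPM), the surface protein gene Ly6h (94.0 and 206 CPM) and the lysosomal enzyme gene Aga (125 and 260 CPM).

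Counts per cell gave these differences another shape. A cluster 5 cell had 2.32 times as many counts outside the hormones as a cluster 1 cell, and the median gene had 2.49 times as many. Malat1 was nearly equal, at 191 counts per cell in cluster 5 and 187 in cluster 1, and so was Chga, at 1.30 and 1.21. The mitochondrial genes had a median ratio of 1.02 and the granule genes of 1.40. Gh itself was higher per cell in cluster 5, at 5925 counts against 5136, although its share was lower. Ribosomal protein genes had a median ratio of 4.58, and Tpt1 had 40.3 counts per cell in cluster 5 against 7.83 in cluster 1. The groups that were lower in cluster 5 as shares were therefore about equal or somewhat higher per cell, and the groups that were higher as shares were several-fold higher per cell. More RNA per cell and a deeper reading of each cell cannot be told apart in these sums.

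The ratio of cluster 5 to cluster 1 in TpitKO followed the ratio of cluster 2 to cluster 1 in the libraries that held cluster 2. Over 9785 genes, Pearson's r between the log2 ratios was 0.835 with TpitWT and 0.770 with TpitHT, and Spearman's rho was 0.822 and 0.819. These comparisons share no cells and no library, although all were counted and clustered together. Of the 124 genes higher in cluster 5, 120 had a ratio in the same direction in TpitWT, and 24 of them (19.4%) were also called there, which was 72.7% of the 33 genes called in TpitWT (0.337% of those compared). In TpitHT, 5 genes were called higher (0.0511%) and 24 lower (0.245%), and 5 and 16 of these were among the TpitKO calls. Of the 29 lower genes, all 29 had the same direction in TpitWT and in TpitHT, and 16 (55.2%) were called in TpitWT, 76.2% of its 21 (0.215%). The share of all 9785 genes with the same direction was not counted. With r this high over all genes, the shared directions cannot be read as particular to the called genes. The medians ran in parallel: ribosomal protein genes were 0.85 higher in cluster 2 than in cluster 1 of TpitWT, mitochondrial genes 0.84 lower, and granule genes 0.45 lower. The 4 genes higher in cluster 5 that did not share the direction in TpitWT were the 4 hemoglobin genes, which had a median log2 ratio of 2.11 in TpitKO. Without hemoglobin, ribosomal protein, mitochondrial and numbered genes, r over 8624 genes was 0.814 with TpitWT and 0.818 with TpitHT.

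**Figure D3:**
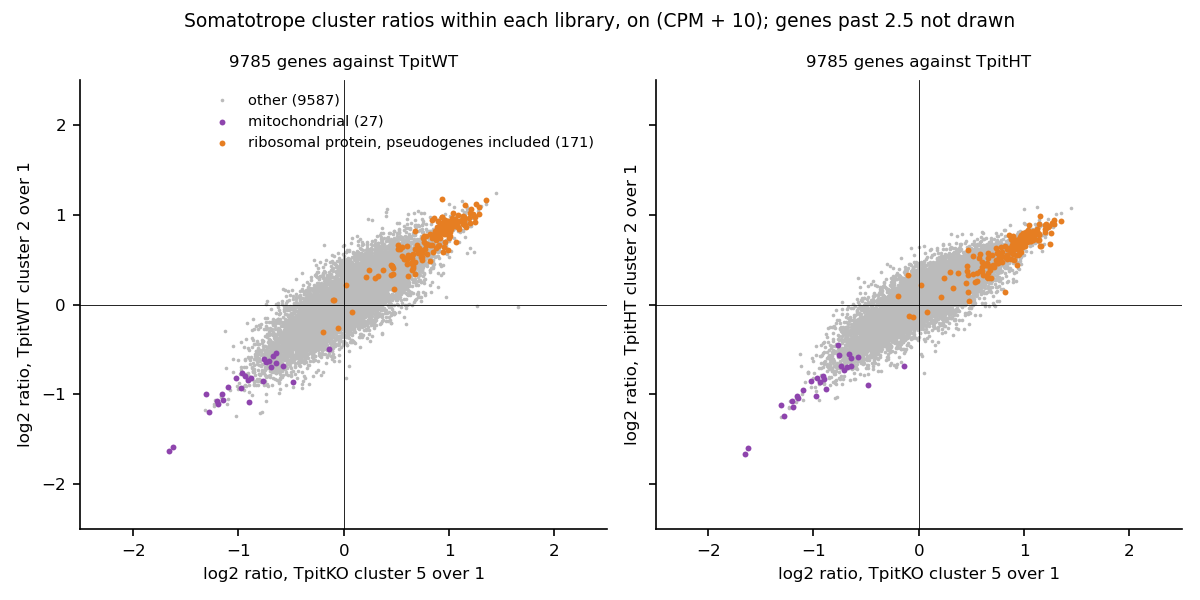
Log2 ratio of TpitKO cluster 5 over cluster 1 (x axis) against that of cluster 2 over cluster 1 in TpitWT (left panel) or TpitHT (right panel), on CPM + 10; each point is 1 of 9785 genes, with ribosomal protein genes in orange and mitochondrial genes in purple, and genes past 2.5 are not drawn. Both coloured groups lie at the ends of the same diagonal, with r of 0.835 in the left panel and 0.770 in the right.

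Few genes were highest in cluster 5 among the TpitKO clusters by a clear margin. Of 9768 genes, 624 (6.39%) were higher there than in each of the 14 other clusters of at least 100 cells. That is about an even share for 1 of 15 clusters. Only 10 (0.102%) were higher by 1.5-fold or more, and the same number was not taken for the other clusters. Isg20 stood out with 143 CPM against 57.9 in cluster 1, the next highest. Dapl1, related to a death-associated protein, had 53.4 CPM against 29.7 in cluster 1, and Tcerg1l had 44.8 against 24.5 in cluster 1. For these genes the next cluster was the other somatotrope cluster. Syce2, a synaptonemal complex protein of meiosis, had 40.2 CPM against 21.6 in cluster 0, and the RNA-binding protein gene Celf6 had 149 CPM against 90.9 in cluster 14. Snhg18 (362 CPM, 223 in cluster 15) and Snord123 (155 CPM, 83.3 in cluster 15) overlap as host and guest. Gsdma, a gasdermin, had 14.3 CPM against 5.99 in cluster 1, and Fgf14, an intracellular regulator of sodium channels, had 36.7 against 21.1 in cluster 1. Of the 9 named genes, 4 (Isg20, Dapl1, Tcerg1l and Gsdma) were higher in cluster 2 of both TpitWT and TpitHT than in cluster 5, and Isg20, for instance, had 257 and 191 CPM there.

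Against cluster 2 of TpitWT and TpitHT, the deeper somatotropes of the other genotypes, cluster 5 differed by more genes lower than higher. Of 9785 genes, 22 were at least 2-fold higher against both (0.225%) and 67 at least 2-fold lower against both (0.685%). The 22 included the 4 hemoglobin genes. For comparison, 3 genes were higher (0.0307%) and 10 lower (0.102%) between cluster 2 of TpitHT and cluster 2 of TpitWT, which are also 1 library each. With all counts as the total the numbers for cluster 5 were 8 higher and 25 lower, and among genes of at least 50 CPM they were 5 higher and 25 lower. Genes that differed between the libraries also helped to set these clusters apart, so the differences are a description.

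Receptors and factors of the growth hormone axis came first by role. Pou1f1, the lineage factor, was read at 588 CPM in cluster 5, 651 in cluster 2 of TpitWT and 508 in that of TpitHT, and the glucocorticoid receptor gene Nr3c1 at 139, 142 and 139 CPM. Both were thus within the range of, or next to, the other libraries. Ghrhr, on chromosome 6 (55376295 to 55388530), was read at 46.5 CPM in cluster 5 and 81.0 in cluster 1 of TpitKO, at 131 and 210 CPM in clusters 2 and 1 of TpitWT, and at 143 and 197 CPM in clusters 2 and 1 of TpitHT. Its level in cluster 5 was the lowest of the 6 somatotrope sums, 2.82 times (2.59 to 3.07) below cluster 2 of TpitWT and 3.06 times (2.82 to 3.32) below that of TpitHT. A count of Ghrhr was present in 19.5% of cluster 5 cells, and in 45.7% and 54.3% of cluster 2 cells of TpitWT and TpitHT. In the endothelial cluster 9, which should lack it, that share was at most 1.9% in the 3 libraries. Pappa2, a protease that frees insulin-like growth factors from their binding proteins, was read at 51.9 CPM in cluster 5 and 80.7 in cluster 1 of TpitKO, against 231 and 228 CPM in TpitWT and 157 and 180 in TpitHT.

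Igf1, whose product is the feedback signal to growth hormone release, went the other way. It was read at 44.7 CPM in cluster 5 and 51.3 in cluster 1 of TpitKO, at 4.09 and 4.15 CPM in clusters 2 and 1 of TpitWT, and at 14.5 and 12.1 CPM in those of TpitHT. The ratio of cluster 5 to cluster 2 was 10.9 (8.35 to 14.6) for TpitWT and 3.08 (2.67 to 3.57) for TpitHT, so the 2 other genotypes also stood apart from each other. Within TpitKO, cluster 9 had more Igf1 than cluster 5, at 115 CPM. Other members of the axis moved less. The signal suppressor Socs2 had 138 CPM in cluster 5 against 85.9 and 95.0 in clusters 2 of TpitWT and TpitHT, and Socs3 had 676 against 515 and 413. The insulin-like growth factor receptor Igf1r had 145 CPM against 161 and 151, and the thyroid hormone receptor Thrb 83.1 against 90.7 and 62.7. The somatostatin receptor Sstr3 had 14.98 CPM against 18.9 and 18.8. Neurod4, Rxrg, Foxo1 and Insm1, transcription factors of endocrine cells, had log2 ratios between −0.27 and 0.57. Of 29 genes in the somatotrope list, 18 passed the filter of 10 CPM on average, and the ghrelin receptor Ghsr and the somatostatin receptors Sstr2 and Sstr5 did not, at 1.55, 6.12 and 2.56 CPM in cluster 5. Over the 18, the median log2 ratio to cluster 2 was −0.01, the same as the −0.01 of all genes, with Igf1 at least 2-fold higher and Ghrhr and Pappa2 at least 2-fold lower.

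The genes named higher in cluster 5 than in cluster 2 were largely also high in cluster 1 of TpitKO. Calb1, the calcium buffer calbindin on chromosome 4 (15881264 to 15908064), was read at 135 CPM in cluster 5 and 96.1 in cluster 1 of TpitKO, against 20.7 and 16.6 CPM in clusters 2 and 1 of TpitWT and 30.8 and 29.1 in those of TpitHT. Lactotrope-like cluster 0 of TpitKO, at 142 CPM, was the only other TpitKO cluster of at least 100 cells above cluster 5. Sphkap, an anchoring protein for the cyclic AMP-dependent kinase on chromosome 1 (83254139 to 83408200), had 195 CPM in cluster 5 and 191 in cluster 1 of TpitKO, against 49.3, 52.4, 51.2 and 54.5 CPM in the same TpitWT and TpitHT clusters. Neither gene's TpitKO values overlapped those of the other genotypes, which for cluster 5 against clusters 2 follows from how the genes were chosen. Upp1, a uridine phosphorylase, had 28.4 and 34.2 CPM in TpitKO against at most 2.31 in the 4 other sums. The glycogen-targeting phosphatase subunit Ppp1r3b had 40.1 CPM in cluster 5 against 7.38 and 6.39 in clusters 2, the transcription regulator Dach1 37.1 against 8.53 and 6.85, and the actin-binding genes Tmsb4x and Marcks 313 against 132 and 135, and 53.0 against 11.5 and 19.1. The adhesion molecules Lsamp and Pcdh20, the RNA-editing family member Adarb2 and Pdzrn4 were the rest, with 43.5, 26.3, 19.3 and 31.4 CPM in cluster 5 and at most 12.7 CPM in clusters 2.

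The genes named lower in cluster 5 held several that were nearly absent from it. Penk, which encodes the opioid precursor proenkephalin on chromosome 4 (4133531 to 4138819), was read at 0.892 CPM in cluster 5, from 15 counts, and at 3.14 CPM in cluster 1 of TpitKO. It had 56.1 and 84.5 CPM in clusters 2 and 1 of TpitWT and 67.9 and 66.6 in those of TpitHT, and 1.55 CPM in endothelial cluster 9 of TpitWT. Ceacam10, an adhesion-related immunoglobulin gene, had 2 counts in cluster 5 and none in cluster 1 of TpitKO, against 63.4, 120, 46.3 and 72.4 CPM in the TpitWT and TpitHT clusters taken in the same order. Ntrk3, the receptor for neurotrophin-3, had 6 counts in cluster 5, or 0.357 CPM, against 56.6 CPM in cluster 2 of TpitWT and 33.5 in that of TpitHT. The somatotrope sums of the other genotypes were all far above those of TpitKO for these 3 genes, which were chosen as lower in cluster 5 than in clusters 2.

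Alcam, an adhesion molecule on chromosome 16 (52248996 to 52454074), was read at 16.4 CPM in cluster 5 and 33.6 in cluster 1 of TpitKO, against 198 and 238.2 CPM in clusters 2 and 1 of TpitWT and 181 and 177 in those of TpitHT. It was 12.05 times (10.6 to 13.7) below cluster 2 of TpitWT, and counts were found in 8.0% of cluster 5 cells against 61.4%. It was not low throughout the knockout, since cluster 3 of TpitKO had 261 CPM. The interleukin-6 receptor Il6ra had 2.85 CPM in cluster 5 against 44.5 and 29.2, and the galactolipid-synthesising enzyme Ugt8a 3.03 against 42.9 and 45.4. Gnmt, a glycine methyltransferase, had 12.4 CPM against 86.5 and 65.2, and the secreted matrix protein gene Ccn1 37.3 against 193 and 229. The MHC class I light chain gene B2m had 87.8 CPM against 384 and 333, which was the only call among 11 MHC class I genes. Dapl1 had 53.4 CPM against 189 and 182, so a gene that marked cluster 5 within the knockout was nonetheless lower there than in both clusters 2. The antioxidant enzyme gene Srxn1 and the imprinted gene Nnat were called as the only such members of their lists, at 54.3 CPM against 368 and 137, and at 1719 CPM against 5322 and 4305.

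**Figure D4:**
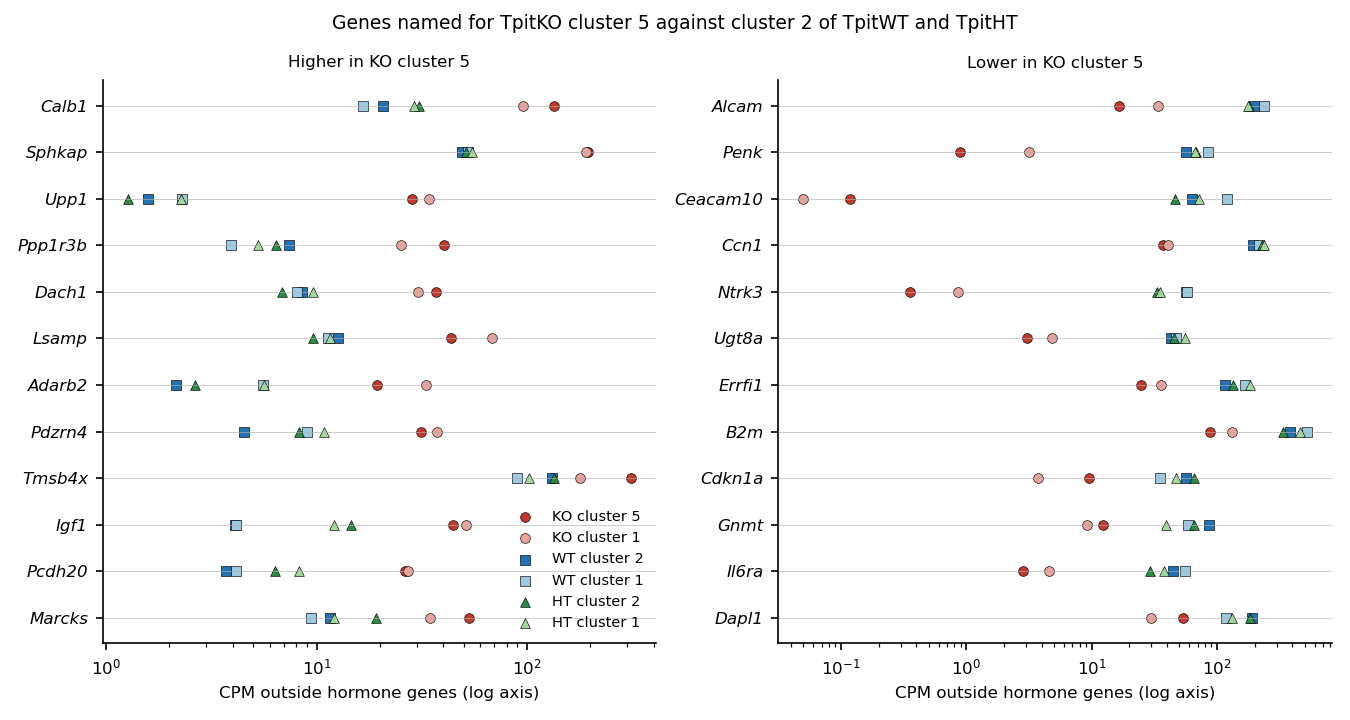
Level of the 24 genes named for TpitKO cluster 5 against cluster 2, in CPM outside the hormone genes on log axes, in the 6 somatotrope sums; circles are TpitKO, squares TpitWT and triangles TpitHT, with the darker symbol for cluster 5 or 2 and the lighter for cluster 1, and a level of 0 is drawn at 0.05. The 2 TpitKO sums lie together and on 1 side of the 4 other sums for all 24 genes, though for Tmsb4x cluster 1 of TpitKO (179 CPM) lies close to cluster 2 of TpitHT (135 CPM). The genes were chosen for the difference between cluster 5 and clusters 2, so that part of the pattern was set in advance. The share of all genes with both TpitKO sums on 1 side of the others was not counted, and genotype and library cannot be told apart.

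Genes induced by glucocorticoids were mostly lower in cluster 5 than in cluster 2. Of 22 listed, 15 passed the filter, 13 of these were lower against both genotypes, 5 of them at least 2-fold, and 2 were higher. Of all 9785 genes compared, 67 (0.685%) were at least 2-fold lower against both. The share lower against both by any amount is not given here. The median log2 ratio of the list was −0.73, beside −0.01 for all genes. Fkbp5, a co-chaperone that restrains the glucocorticoid receptor, was read at 38.5 CPM in cluster 5 and 32.5 in cluster 1 of TpitKO, against 121 and 129 CPM in clusters 2 and 1 of TpitWT and 147 and 130 in those of TpitHT. Klf15, a transcription factor, had 9.57 CPM in cluster 5 against 43.0 and 57.2 in clusters 2. Errfi1, an inhibitor of the EGF receptor, had 24.7 CPM against 116 and 134. The metallothionein gene Mt2 had 64.2 CPM against 246 and 209, and the cell cycle inhibitor Cdkn1a 9.57 against 56.1 and 65.3. For all 5, the somatotrope sums of TpitKO and those of the other genotypes did not overlap. For cluster 5 against clusters 2 this follows from the 2-fold call. The share of all genes without overlap was not counted, so the separation is not read as a trait of the list. Dusp1, a phosphatase of MAP kinases that is also an immediate early gene, was the main exception, at 627 CPM in cluster 5 against 321 and 318, and Per1, a clock gene, had 22.7 against 17.99 and 21.0.

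Values for the same list in other comparisons stood as follows. Cluster 1 of TpitKO had a median of −0.64 against cluster 1 of TpitWT and −0.89 against that of TpitHT, with 5 and 6 genes at least 2-fold lower. Cluster 2 of TpitHT had a median of 0.19 against cluster 2 of TpitWT. The lactotrope-like cluster 0 of TpitKO had a median of −0.10 against cluster 0 of TpitWT over 14 genes, with none at least 2-fold lower. The TpitKO comparisons with TpitWT share libraries and are given side by side only. The sequence GNACA, then any 3 bases, then TGTNC, which reads the same on both strands and resembles the binding site of the glucocorticoid receptor, was found in the RefSeq promoter windows (GRCm38.p6, 250 bases before to 50 after the start) of 2 of the 18 list genes that have one, Mt1 and Sgk1. It was found in 0.5365% of all genes with a window and in 0.3448% of those compared here. Among the 12 genes named lower in cluster 5, 10 had a window and 1 held the sequence, Gnmt, just inside the transcript. The matches are shown in capitals with the 20 bases on each side, on the transcript's strand (the last is cut by the end of its window).
Mt1, chr8:94178975-94179027, plus strand: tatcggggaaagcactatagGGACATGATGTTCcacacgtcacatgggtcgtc
Sgk1, chr10:21993682-21993734, plus strand: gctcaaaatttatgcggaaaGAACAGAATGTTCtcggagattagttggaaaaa
Gnmt, chr17:46729116-46729166, minus strand: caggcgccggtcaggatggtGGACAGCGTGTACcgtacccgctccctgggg
Mt1 was read at 841 CPM in cluster 5 against 1471 and 1576 CPM in clusters 2, lower by less than 2-fold, whereas Sgk1 was read at 11.5 CPM in cluster 5 against 1.94 and 5.93, below the filter and higher. The genes holding the sequence thus did not share a direction. Other sequences were searched on both strands in the windows of the same 10 genes. The Pou1f1-like ATGNATA was found in 0 genes (10.2% of all genes with a window and 4.92% of those compared here). TGACGTCA of the cyclic AMP response element was found in 1, Errfi1 (2.03% and 4.07%). TGACG, which TGACGTCA contains, was found in 6 (23.05% and 39.5%).

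**Figure D5:**
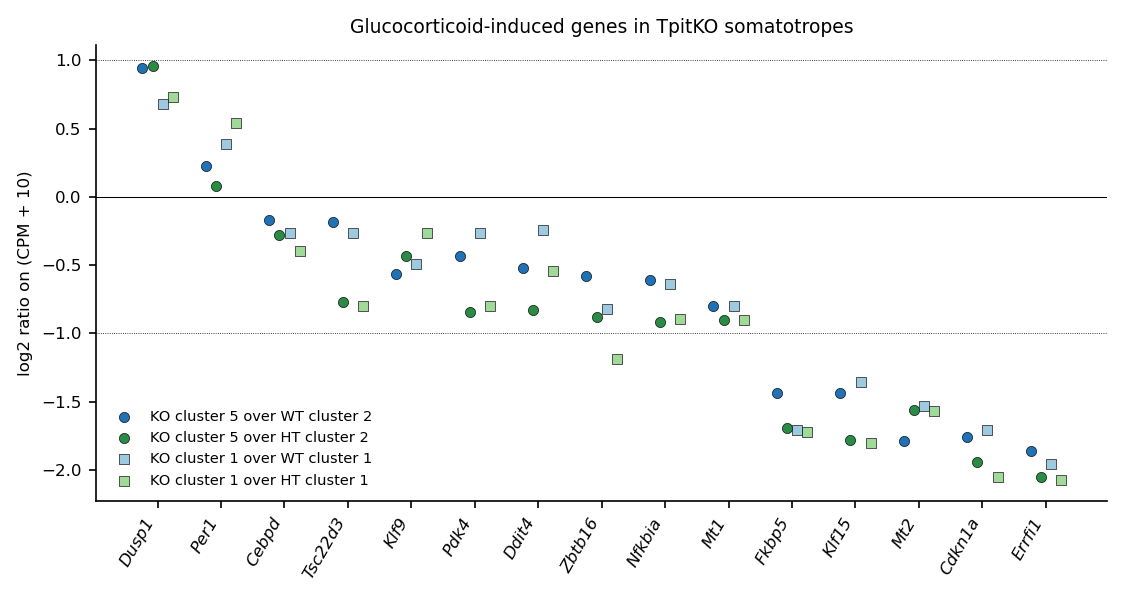
Log2 ratio on CPM + 10 for the 15 glucocorticoid-induced genes that passed the filter, for TpitKO cluster 5 over cluster 2 of TpitWT (blue circles) and TpitHT (green circles) and for TpitKO cluster 1 over cluster 1 of TpitWT and TpitHT (pale squares); dotted lines mark 2-fold, and each point is a ratio of 2 sums with no replicate. All points lie below 0 for 13 genes, and Dusp1 and Per1 lie above 0 in all 4 comparisons.

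The list of neuropeptides and local ligands had a median as low as the glucocorticoid list, at −0.73, but over 8 of its 31 genes, of which 5 were lower against both genotypes and 3 higher. Penk was its 1 call, and Gal, the precursor of galanin, had 11.3 CPM in cluster 5 against 28.5 and 24.4 in clusters 2. Inha, the inhibin alpha subunit, was among the higher, at 21.7 CPM against 15.9 and 14.7. The following lists had medians nearer to 0. The unfolded protein response list was lower against both genotypes in 20 of 24, with a median of −0.29 and no gene at least 2-fold lower. Against TpitWT alone the median was −0.40 and against TpitHT alone −0.17, and cluster 2 of TpitHT was itself 0.23 below that of TpitWT. Immediate early and heat shock genes were higher against both in 12 of 20, with a median of 0.25. Granule genes, so different between clusters 5 and 1, had a median of −0.04, and ion channels, exocytosis and calcium handling genes had medians of 0.06, 0.09 and 0.03. Ribosomal protein genes had a median of 0.07. Of these lists, calcium handling held 1 called gene, Calb1, and the cyclic AMP pathway list 1, Sphkap. Handling of the tissue during dissociation is known to induce immediate early genes, and its part was not tested.

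Compared with cluster 1 of TpitWT and TpitHT, cluster 5 had 29 genes at least 2-fold higher (0.296%) and 100 at least 2-fold lower (1.02%). With all counts as the total the balance turned round, to 704 higher and 11 lower, and the median of all genes was 0.60 in place of 0.09. The leading genes were those already described, Calb1, Sphkap, Ppp1r3b and Camk2n1 on the higher side and Alcam, Ceacam10, Penk and Errfi1 on the lower. Camk2n1 combined both patterns, with 404 CPM in cluster 5, 245 and 248 CPM in clusters 2 of TpitWT and TpitHT, and 109 and 118 CPM in their clusters 1. Cluster 1 of TpitKO had 28 genes higher (0.286%) and 60 lower (0.613%) against the same sums.

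The few cells in which cluster number and genotype were crossed had sums between those of TpitKO cluster 5 and of clusters 2, for genes chosen because these 2 ends differ. The 12 genes named lower in cluster 5 than in cluster 2 summed to 249 CPM (241 to 257) in TpitKO cluster 5 and to 1486 and 1412 CPM in cluster 2 of TpitWT and TpitHT. In the 28 cluster 5 cells of TpitWT the sum was 572 CPM (456 to 709), and in the 24 of TpitHT it was 860 CPM (712 to 1030). In the 17 cluster 2 cells of TpitKO it was 370 CPM (263 to 506). For these genes the TpitKO cells of cluster 2 lay nearer to TpitKO cluster 5 than to cluster 2 of the other genotypes. The 12 genes named higher summed to 967 CPM in TpitKO cluster 5, to 474 CPM (352 to 625) in the TpitKO cells of cluster 2, to 614 and 488 CPM in the cluster 5 cells of TpitWT and TpitHT, and to 258 and 291 CPM in their clusters 2. For these genes the point value of the TpitKO cells of cluster 2 lay nearer to cluster 2 of the other genotypes, but it came from 50 counts. The upper end of its interval lay about midway between cluster 2 of TpitHT and TpitKO cluster 5, so the counts do not settle which was nearer. Tmsb4x was the largest part of the sums in clusters 2. Both sets were chosen for the difference between TpitKO cluster 5 and cluster 2 of the other genotypes, so these sums stood at the ends by choice. Cluster 1 of TpitKO also lay between them, at 298 CPM for the genes named lower and 808 CPM for those named higher. Clusters 1 of TpitWT and TpitHT had 1719 and 1539 CPM for the former and 216 and 264 CPM for the latter. On the map, 60.8% of the neighbours of the cluster 5 cells of TpitWT and 70.6% of those of TpitHT were cells of TpitKO cluster 5, while 44.9% of the neighbours of the 17 TpitKO cells of cluster 2 were TpitHT cells of cluster 2. How many of these cells were doublets or carried free RNA was not tested. Pomc, which no somatotrope should make, had a count in 96.4% of the cluster 5 cells of TpitWT and 96.2% of its cluster 2 cells, and in 12.5% of TpitKO cluster 5 cells and 3.80% of TpitKO endothelial cluster 9 cells, at 12859 and 4250 counts per cell.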

How the data were processed

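The authors deposited raw counts of each gene added up within every cluster of a library, scaled versions of these sums (a signal), and a table of cell barcodes with cluster numbers and UMAP positions (a score without unit). The deposited cell numbers with a count of each gene and the cluster labels were recorded as other values. Per the submitters' processing notes the tools were Cell Ranger 5, Seurat 3.1 and DESeq2, and the builds mm10 and GRCm38. Whether counts are molecules is not given in the sources used here, and no doublet step is stated. Rows of the same symbol were added. Genes averaging at least 10 CPM over 6 somatotrope sums and at least 50 counts in the columns compared were kept, 9785 in all. Intervals were exact Poisson, Clopper-Pearson or conditional binomial. The ratio rule was run on simulated Poisson counts, which hold no bunching in cells, so the run says nothing on how far the intervals are too narrow. Genes were named by rank of ratio (up to 12 each way against cluster 1 and against cluster 2, 10 among TpitKO clusters, 4 each way against the other clusters 1), by the given markers, and by the lists. The members and lists were chosen with earlier results of these data known. Python 3.11.15, pandas 2.3.3 and scipy 1.17.1 were used.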

Additional observations from a re-analysis of the deposited data

How the results depend on the processing

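Of the counts of genes, 25 moved by over 1.5 times under an alternative and 19 did not. Against cluster 1 of TpitKO, the 124 genes higher in cluster 5 became 606 with all counts as the total, 207 with mitochondrial and ribosomal protein genes also left out of the total, 57 with median-of-ratios scaling, 5 on the scaled sums as deposited and 286 with 1 CPM added. The 29 lower became 2 with all counts, 48 with median-of-ratios scaling, 383 on the deposited scaled sums and 126 with 1 CPM added. Against cluster 2 of TpitWT and TpitHT, the 22 higher became 8 with all counts, 47 with 1 CPM added and 5 at a mean of at least 50 CPM, and the 67 lower became 25, 130 and 25. Against their cluster 1, the 29 higher became 704 with all counts, 45 without mitochondrial and ribosomal protein genes in the total, 16 with median-of-ratios scaling, 11 on the deposited scaled sums, 86 with 1 CPM added and 12 at 50 CPM, and the 100 lower became 11 with all counts, 241 on the deposited scaled sums, 225 with 1 CPM added and 54 at 50 CPM. Of the list medians taken against all genes, 31 moved and 308 did not, and of the values of named genes 209 moved and 808 did not. With all counts as the total, 97 values of named genes moved and 35 did not. The 2 settings of the filter on mean level, which cannot change a ratio, gave 159 and 96 of the values that did not move. The balance of higher against lower calls thus turned round for cluster 5 against cluster 1 of TpitKO on the deposited scaled sums, and against cluster 1 of TpitWT and TpitHT with all counts. The deposited scaled sums were added after seeing the data, in place of scaled counts per cell, which were not run. No paired analysis was possible because there was a single library of TpitWT, of TpitHT and of TpitKO, and none could be left out.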
